A study of Mus musculus with 37 samples.

Results

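Lymph nodes of the groin and of the neck sit at opposite ends of the body, and the comparison described here sets RNA from the inguinal node against RNA from a neck node that the labels call super cervical. It rests on 6 of the 37 libraries of the series, 3 from each node, chosen by their titles alone, and it covers all genes of the deposited count table. The series profiled RNA pulled down on tagged ribosomes from 11 lymph node sites and the spleen of mice, with 1 isotype control pull-down from jejunal node. In RiboTag mice, Cre recombinase switches the ribosomal protein gene Rpl22 to a form with a haemagglutinin (HA) tag, and an antibody to the tag then collects ribosomes with the mRNA they carry. All 6 libraries came from mice labelled CD169 Cre KI/KI and Rpl22HA homozygous, so the driver was Cre placed in the CD169 (Siglec1) locus on both copies, and no group without Cre was compared. The labels call the cells cd169 macrophages and give no age, sex, number of animals or pooling, nor do they say that the 3 libraries of a node came from different animals. The p-values below therefore measure the spread between these libraries, which may be partly technical.

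CD169 marks macrophages that line the subcapsular and medullary sinuses of lymph nodes, where they take up particles, pathogens and lipid from lymph. Hox genes encode homeodomain transcription factors that lie in 4 clusters, and the position of a gene along its cluster follows the level of the body axis at which it is active in the embryo, a pattern that connective tissue cells keep in the adult. Inguinal nodes lie in a white fat pad which in females also holds mammary gland, and nodes of the neck lie beside the large salivary glands.

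The inguinal libraries held 3086740, 3285802 and 16823454 counts and the super cervical ones 1283757, 3520593 and 9067640, within a series range of 221911 to 69139450. Super cervical library 1 was the shallowest: 6496 genes reached 10 counts in it, against 10808 to 17590 in the 3 inguinal libraries, and features that carry ribosomal sequence took 27.3% of its counts, against 6.49% to 11% in the inguinal libraries and 7.91% and 8.76% in super cervical libraries 2 and 3. Levels are given as CPM, the counts a gene would have if the TMM-adjusted library held 1000000, and 3 counts correspond to 0.144 to 1.08 CPM in the inguinal and 0.256 to 3.29 CPM in the super cervical libraries. Spearman correlations over genes ran from 0.77 to 0.91 between libraries of the same node and from 0.71 to 0.93 between nodes, so the libraries did not separate by node as a whole. The labelled cell type could be checked only in part. Low Siglec1 RNA cannot decide the point, because Cre was placed in both copies of that locus and may alter its RNA. Siglec1 had 0.359, 0 and 0.0961 CPM in the inguinal libraries, against 3.29, 0 and 0.171 CPM in the super cervical ones, and Adgre1, which encodes the macrophage protein F4/80, had at most 0.240 CPM in an inguinal and 1.02 CPM in a super cervical library. Marco, a scavenger receptor of sinus macrophages, was well measured, with 1048, 1124 and 768 CPM in the inguinal libraries and 2322, 1864 and 695 CPM in the super cervical ones, against 17.0 CPM in the isotype control. B cell genes were abundant as well, with Pax5, a B cell transcription factor, at 1242 to 1830.4 CPM in inguinal and 908 to 1562.5 CPM in super cervical libraries. The isotype control held 2246.8 CPM of Pax5 by its plain total, more than any of the 6 libraries. Malat1, a nuclear noncoding RNA, varied widely, with 173522, 106709 and 32447 CPM in the inguinal libraries. It had 91862, 70210 and 23913 CPM in the super cervical libraries and 266076 CPM in the isotype control by its plain total. Its part in comparisons with the isotype control was not tested.

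Of 11844 genes tested, 21 (0.177%) differed between the nodes at an adjusted p under 0.05 in edgeR's quasi-likelihood test. Of all genes tested, 10 (0.0844%) were higher in the inguinal node and 11 (0.0929%) were lower. At an unadjusted p under 0.05 there were 445 genes, and log2 fold changes, taken as inguinal over super cervical, had a median of -0.05 over all genes and a median standard error (SE) of 0.51. For genes with few counts in a node the fitted log2 fold change depends on the prior count. It then gives a direction but no measure of size. The called genes fell into few groups. On the higher side they were the Hox genes Hoxc8 and Hoxb7, the fat genes Fabp4, Cfd, Retn and Cox8b, the genes Cited1, Areg and Krt19 of a list of mammary epithelium, and Mup22. On the lower side they were the salivary secretory genes Smr3a, Bpifa2 and Amy1, the secreted-protein genes Dnase1, Chia1, Wfdc12, Bglap3 and Cst5, the unnamed locus 2310057J18Rik, the homeobox gene Pitx1, and Igha. Leaving out inguinal library 1, 2 or 3 gave 6, 10 and 12 calls, and leaving out super cervical library 1, 2 or 3 gave 39, 21 and 51. Without inguinal library 1 no gene was called lower.

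**Figure D1:**
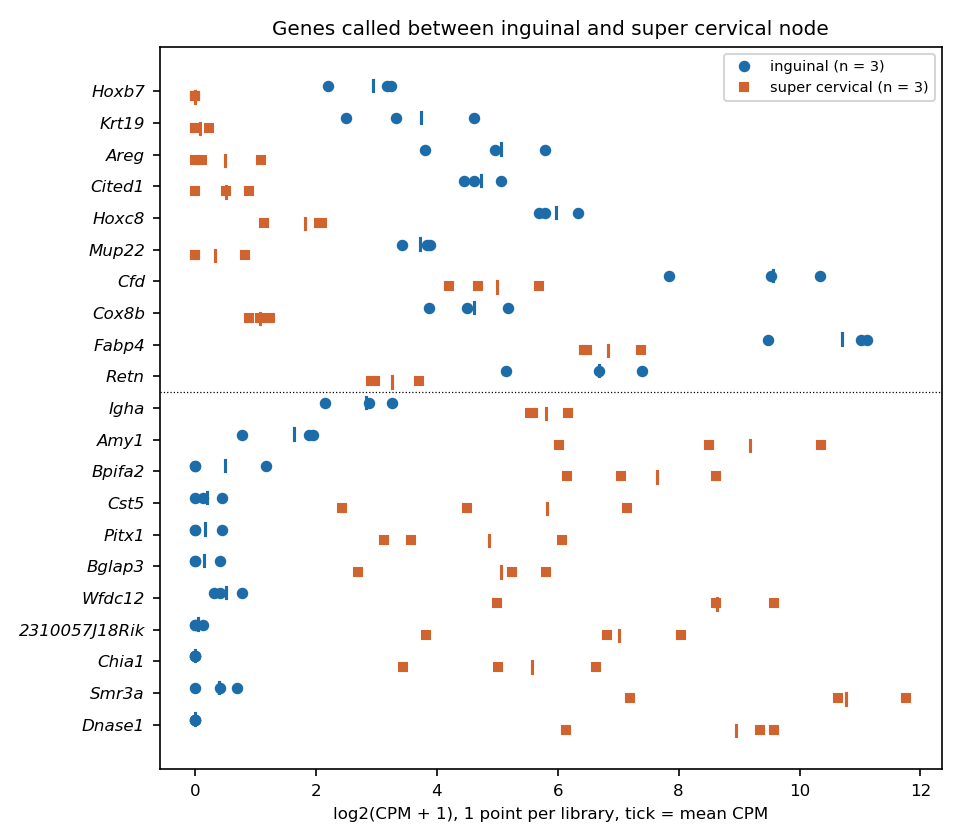
Level of the 21 called genes in each library as log2(CPM + 1), with inguinal libraries as blue circles, super cervical libraries as orange squares, and a tick at the log2 of the mean CPM plus 1. The 10 genes above the dotted line were higher in inguinal node and the 11 below it were lower, and within each gene the 3 inguinal and 3 super cervical points do not overlap.

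**Figure D2:**
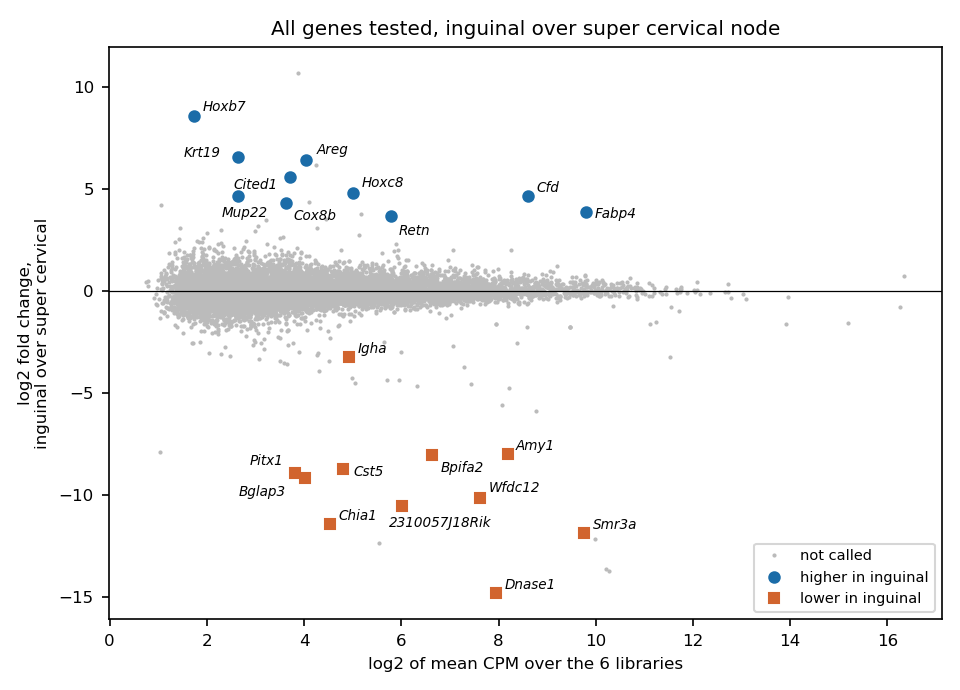
Log2 fold change, inguinal over super cervical, against the log2 of the mean CPM for the 11844 genes tested, with the 21 called genes marked and named. Most genes lie near 0 (median -0.05), and fitted values of genes with few or no counts in a node, such as Dnase1 and Hoxb7, depend on the prior count and give no measure of size.

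Promoters of the called genes were read from RefSeq (build GRCm38.p6) to show the DNA in front of genes that moved together. Of the 21 genes, 13 matched an entry of the promoter table and 8 did not. The motif TATAA, searched on both strands in the 50 bases before the start, was found in 6 of the 13 genes (Smr3a, Bpifa2, Chia1 and Bglap3 on the lower side, Areg and Cited1 on the higher side), and 6.36% of the 32851 promoters in the table hold it in the same window. By the first listed promoter of each gene, as used for the 13, the share was 6.7% of 27025 genes. The letters are those of a TATA box, the element that fixes the start of transcription in many genes with strong, cell-type-restricted activity. A match is only a description of the letters, its distance from the start differed between genes, and whether it acts as a TATA box was not tested. The 250 bases before the start are shown for both salivary genes with a match, for Areg and Cited1, and for the fat gene Cfd, which has no match, with the motif in capitals and each strand written 5′ to 3′. Smr3a lies at chr5:88002275-88002524 on the plus strand, Bpifa2 at chr2:154008026-154008275 on the plus strand, Areg at chr5:91139349-91139598 on the plus strand, Cited1 at chrX:102252182-102252431 on the minus strand (the first listed of its 3 starts) and Cfd at chr10:79890603-79890852 on the plus strand.
Smr3a: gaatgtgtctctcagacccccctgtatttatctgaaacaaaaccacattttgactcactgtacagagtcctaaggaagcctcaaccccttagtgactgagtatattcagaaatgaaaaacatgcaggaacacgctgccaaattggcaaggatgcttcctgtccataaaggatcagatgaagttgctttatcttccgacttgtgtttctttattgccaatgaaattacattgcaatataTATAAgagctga
Bpifa2: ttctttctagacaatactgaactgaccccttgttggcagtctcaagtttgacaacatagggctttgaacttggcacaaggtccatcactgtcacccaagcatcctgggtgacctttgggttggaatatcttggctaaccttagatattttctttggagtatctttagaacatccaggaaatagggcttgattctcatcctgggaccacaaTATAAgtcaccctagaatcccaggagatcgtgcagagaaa
Areg: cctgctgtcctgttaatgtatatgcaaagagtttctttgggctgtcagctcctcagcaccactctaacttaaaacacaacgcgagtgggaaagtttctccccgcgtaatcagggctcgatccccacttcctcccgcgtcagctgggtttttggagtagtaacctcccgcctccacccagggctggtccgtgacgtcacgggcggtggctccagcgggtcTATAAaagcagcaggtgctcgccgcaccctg
Cited1: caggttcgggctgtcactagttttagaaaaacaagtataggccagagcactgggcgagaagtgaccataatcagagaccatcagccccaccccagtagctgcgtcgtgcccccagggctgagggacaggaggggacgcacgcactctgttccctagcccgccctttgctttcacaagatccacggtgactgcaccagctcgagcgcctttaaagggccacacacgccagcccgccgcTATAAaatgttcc
Cfd: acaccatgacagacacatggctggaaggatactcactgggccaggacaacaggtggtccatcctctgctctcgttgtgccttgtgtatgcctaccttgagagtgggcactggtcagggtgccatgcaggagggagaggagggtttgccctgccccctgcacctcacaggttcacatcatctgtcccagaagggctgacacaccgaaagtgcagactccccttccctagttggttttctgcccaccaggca
The motif begins 12 bases before the start in Smr3a, 40 in Bpifa2, 31 in Areg and 13 in Cited1.

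The Hox genes Hoxc8 and Hoxb7 were higher in the inguinal node. Hoxc8, a gene of the middle of the HoxC cluster that in the embryo is active from the thorax backwards, had 54.5, 80.0 and 50.7 CPM in the inguinal libraries, against 3.29, 3.14 and 1.19 CPM in the super cervical ones. The lowest inguinal library was above the highest super cervical one, and the log2 fold change was 4.81 ± 0.53 (SE, n = 3 each, edgeR adjusted p = 0.00473). Hoxb7, its neighbour in rank in the HoxB cluster, had 3.59, 8.04 and 8.46 CPM in the inguinal libraries and 0 counts in all 3 super cervical libraries. Set against a floor of 3 counts over the super cervical group, it was at least 36-fold higher (210 counts against 0, edgeR adjusted p = 0.0313). Hoxc8 was called in all 16 alternatives run, whereas Hoxb7 lost its call without any one of the inguinal libraries (adjusted p = 0.115 to 0.144) and without super cervical library 2 (adjusted p = 0.0589). In a bulk pull-down such as this, fewer cells of a type and less RNA per cell cannot be told apart.

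The remaining members of the clusters can be followed from the front to the rear of each. Of 39 Hox cluster genes in the table, 8 had enough counts to be tested, 2 were higher in inguinal node and 0 were lower. Their median log2 fold change was 1.46, against -0.05 over all genes tested. In 5 of the 8 the inguinal libraries all lay above the super cervical ones, and over all genes tested 4.67% did so, while 0 of the 8 lay below. Hoxc8, Hoxc9 and Hoxb7 had enough counts to be tested only because of their inguinal counts. The median and the lack of overlap are therefore partly set by that filter, and the share over all genes is no fair reference for these genes. Hoxc9, next to Hoxc8 in its cluster, had 31.2, 47.2 and 19.4 CPM in the inguinal libraries against 2.19, 3.42 and 0.171 CPM in the super cervical ones, a log2 fold change of 4.38 ± 0.84 that missed the threshold (edgeR adjusted p = 0.087). Hoxa7 had 17.6, 17.1 and 13.6 CPM in the inguinal libraries and 7.68, 7.13 and 4.01 CPM in the super cervical ones (log2 fold change 1.42 ± 0.47, edgeR adjusted p = 0.979). Neither gene's libraries overlapped between the nodes.

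Genes from the front of the clusters behaved differently from gene to gene. Hoxb4 had 110.1, 81.4 and 42.6 CPM in the inguinal libraries, against 27.4, 37.6 and 17.9 CPM in the super cervical ones, with a log2 fold change of 1.5 ± 0.44 (edgeR adjusted p = 0.796). Hoxb1, which in the embryo is active in the hindbrain, had 3.59, 0.670 and 0.625 CPM in the inguinal libraries and 7.68, 5.70 and 1.45 CPM in the super cervical ones, groups that overlapped (log2 fold change -1.61 ± 0.92, edgeR adjusted p = 0.979). Further back, Hoxd8, of the same number as Hoxc8, and Hoxd11, from the rear of the HoxD cluster, also overlapped. Their log2 fold changes were -0.66 ± 0.80 and 0.61 ± 0.68 (edgeR adjusted p = 0.979 each).

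Most cluster genes were too sparse to test, and their levels are given without one. Hoxb8 had 1.43, 1.005 and 1.59 CPM in the inguinal libraries and 0 counts in each super cervical library. Hoxc10, the rearmost HoxC gene with counts in all inguinal libraries, had 1.79, 2.01 and 2.35 CPM in them, against 0, 0 and 0.0853 CPM in the super cervical ones. Hoxc6 and Hoxa5 showed the same order: Hoxc6 had 3.01 to 4.08 CPM in inguinal and 0 to 0.57 CPM in super cervical libraries, and Hoxa5 had 2.15 to 4.69 CPM in inguinal and 0 to 1.19 CPM in super cervical libraries. In contrast, Hoxc4, Hoxd4, Hoxb9 and Hoxd9 overlapped between the nodes, and Hoxa11, Hoxa13, Hoxb13, Hoxd1 and Hoxd13 had no counts in any of the 6 libraries. The summed level of the Hox genes was 269.7, 275 and 166 CPM in the inguinal libraries, against 73.5, 92.3 and 42.1 CPM in the super cervical ones. Summed markers of fibroblastic and reticular stroma, the connective tissue cells of the node, were 1093, 1167 and 1432 CPM in the inguinal libraries and 1449, 1296 and 1292.5 CPM in the super cervical ones, and their part in the Hox result was not tested. The isotype control, from a node outside this comparison, held 67.4 CPM of Hoxc8, 29.0 CPM of Hoxc9 and 193 CPM of Hoxb4 by its plain total, without the antibody to the tag. The counting is not stated to use strand, and Hox clusters hold antisense transcripts, whose reads cannot be told apart from those of the genes.

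**Figure D3:**
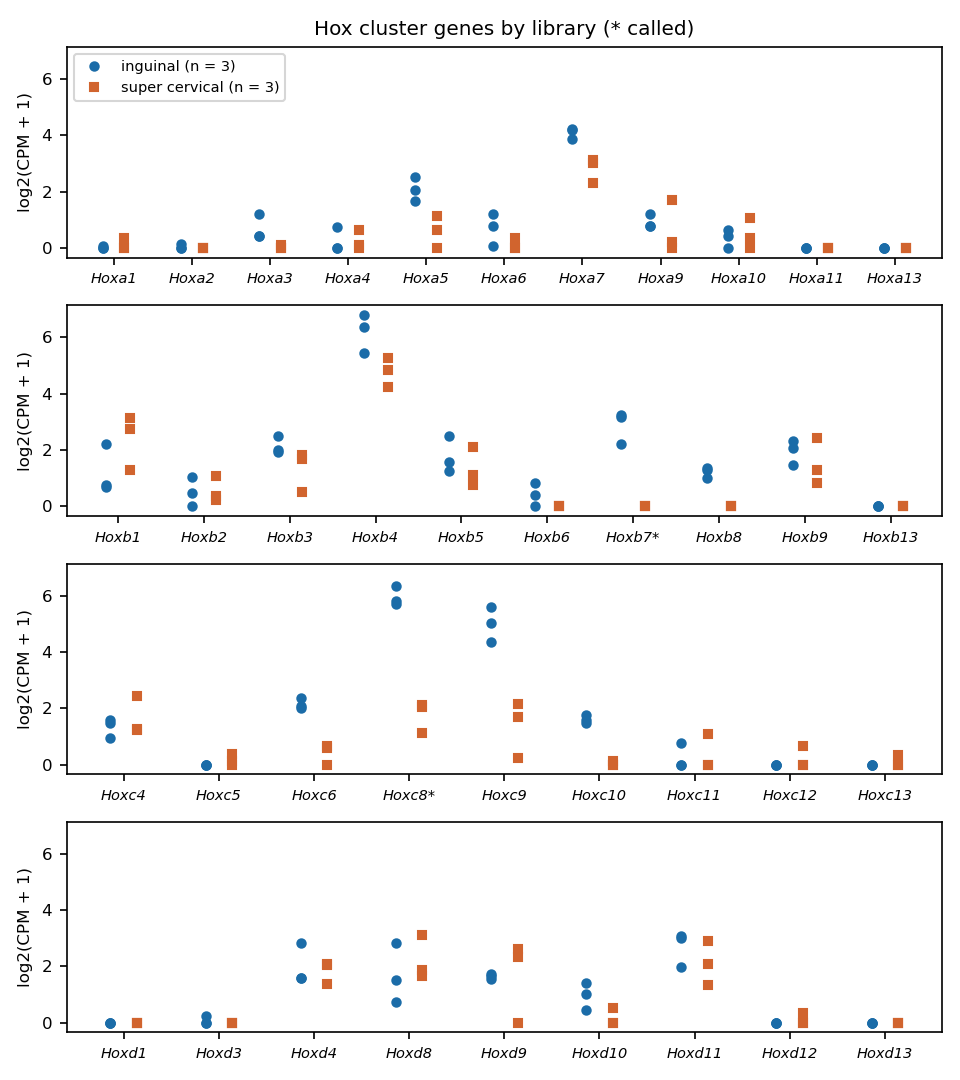
Level of each Hox cluster gene as log2(CPM + 1) in the 3 inguinal (blue circles) and 3 super cervical libraries (orange squares), with 1 panel for each of the 4 clusters and genes ordered by their number. Hoxc8 and Hoxb7, marked with a star, were called, and Hoxc9, Hoxc6, Hoxc10 and Hoxb8 also lie higher in every inguinal library.

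Among 63 other homeobox and T-box genes with known roles in regional identity, 14 were tested, 0 were higher and 1, Pitx1, was lower in the inguinal node. Pitx1 encodes a homeodomain factor active in the embryonic hindlimb, the first pharyngeal arch and the oral epithelium. It had 0.359, 0 and 0 CPM in the inguinal libraries, against 7.68, 10.8 and 66.0 CPM in the super cervical ones. With counts pooled over the libraries of a node and divided by the pooled library totals, which weights the deep libraries most, 1 count stood against 818, a ratio of 0.000742 with a 95% exact interval of 1.88e-05 to 0.00415 that covers counting error only (edgeR adjusted p = 0.013). The call was lost without any one of the inguinal libraries (adjusted p = 0.0984 to 0.24). Barx2, a homeobox gene of glandular epithelium and muscle, overlapped with 1.08, 4.69 and 2.26 CPM in the inguinal libraries and 2.19, 18.2 and 23.5 CPM in the super cervical ones (log2 fold change -2.56 ± 0.73, edgeR adjusted p = 0.684). The median log2 fold change of the 14 was -0.55. Over all genes tested, 0.0929% were called lower. Of the 14, 1 lay entirely above and 1, Pitx1, entirely below in the inguinal libraries, and over all genes tested 4.67% and 4.04% did so. Pitx1 had enough counts to be tested only because of its super cervical counts. In the super cervical libraries Pitx1 was highest in library 3, the library with the highest summed salivary genes (525.7, 3202 and 25911 CPM in super cervical libraries 1 to 3), and the part of gland tissue in the Pitx1 result was not tested.

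Fat genes formed the most abundant group on the higher side. Fabp4, the fatty-acid-binding protein of adipocytes, also made by endothelium and macrophages, had 709.7, 2229.8 and 2073 CPM in the inguinal libraries, against 165, 85.2 and 88.6 CPM in the super cervical ones. The log2 fold change was 3.90 ± 0.53 (edgeR adjusted p = 0.0095). Cfd, adipsin, a complement protease secreted by adipocytes, had 228, 1294 and 735 CPM in the inguinal libraries and 50.5, 17.4 and 24.7 CPM in the super cervical ones, a log2 fold change of 4.66 ± 0.67 (edgeR adjusted p = 0.0117). Retn, the adipocyte hormone resistin, had 34.4, 168 and 102 CPM in the inguinal libraries and 12.1, 6.56 and 6.91 CPM in the super cervical ones, a log2 fold change of 3.67 ± 0.58 (edgeR adjusted p = 0.0239). In all 3 genes inguinal library 1 was the lowest of its group and super cervical library 1 the highest of its own, and the groups did not overlap.

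Of 15 white fat genes, 11 were tested, and 3 were higher and 0 lower. Their median log2 fold change was 2.03, all 11 were positive, and in 8 the inguinal libraries lay entirely above the super cervical ones, as did 4.67% of all genes tested. Some of the 8, such as Cidec, had enough counts to be tested only because of their inguinal counts. The share over all genes is no fair reference for those. Genes that missed the threshold included Thrsp, a regulator of fat synthesis, with 19.7, 38.5 and 46.5 CPM in inguinal against 1.10, 6.56 and 3.41 CPM in super cervical libraries (log2 fold change 3.10 ± 0.55, edgeR adjusted p = 0.0547). Cidec, a lipid droplet protein, and Lpl, lipoprotein lipase, had log2 fold changes of 3.18 ± 0.65 and 2.03 ± 0.46 (edgeR adjusted p = 0.125 and 0.224). Adipoq, which encodes adiponectin and defines adipocytes, was too sparse to test, with 2.51, 3.01 and 4.47 CPM in the inguinal libraries and 0, 0.285 and 0.256 CPM in the super cervical ones. Lep, leptin, had at most 0.144 CPM in an inguinal and 0.57 CPM in a super cervical library. The number of white fat genes called was 0 without super cervical library 2 and 5 without super cervical library 3, although Cfd lost its call there (adjusted p = 0.406). Retn lost its call without inguinal library 2 as well (adjusted p = 0.077).

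Cox8b, a cytochrome c oxidase subunit of brown fat and muscle, was the 1 gene called of 3 tested among 11 brown fat genes. It had 13.6, 35.2 and 21.6 CPM in the inguinal libraries and 1.10, 0.855 and 1.37 CPM in the super cervical ones, a log2 fold change of 4.31 ± 0.58 (edgeR adjusted p = 0.0095, or 0.0556 without inguinal library 2). Ucp1, the uncoupling protein of brown fat, was not tested, and its levels were 6.46, 4.69 and 1.68 CPM in inguinal and 0, 0.285 and 0.171 CPM in super cervical libraries. Summed over the white fat list, the inguinal libraries held 1368, 4680.0 and 3415 CPM and the super cervical ones 426, 270.5 and 225 CPM. How much of this RNA came from fat around the node was not tested. In the isotype control Fabp4 stood at 24.0 CPM, Cfd at 10.6 CPM and Retn at 5.20 CPM. Lpl, in contrast, stood at 986.8 CPM there by plain total, against 79.4 to 809 CPM in the 6 libraries.

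Cited1, Areg and Krt19, 3 genes of the mammary epithelium list, were higher in the inguinal node and close to 0 in the super cervical node. Cited1, a transcriptional co-activator, had 20.8, 32.5 and 23.6 CPM in the inguinal libraries, against 0, 0.855 and 0.427 CPM in the super cervical ones (log2 fold change 5.6 ± 0.63, edgeR adjusted p = 0.00473). Areg, amphiregulin, a growth factor that activates the EGF receptor, had 12.9, 30.1 and 54.4 CPM in the inguinal libraries and 0, 1.14 and 0.0853 CPM in the super cervical ones (log2 fold change 6.41 ± 0.92, edgeR adjusted p = 0.0117). Krt19, a keratin of simple epithelium, had 4.66, 9.04 and 23.4 CPM in the inguinal libraries and 0, 0 and 0.171 CPM in the super cervical ones. Its 527 counts stood against 2, a ratio of pooled counts of 160 with a 95% exact interval of 44.1 to 1320 (edgeR adjusted p = 0.0183). Areg and Krt19 were highest in inguinal library 3 and lowest in inguinal library 1.

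Of 16 mammary epithelium genes, 11 were tested, 3 were higher and 0 lower, and their log2 fold changes had a median of 1.45. Of the 11, 4 lay entirely above and 1 entirely below in the inguinal libraries, and over all genes tested 4.67% and 4.04% did so. Cited1, Areg and Krt19 had enough counts to be tested only because of their inguinal counts. The share over all genes is therefore no fair reference for them. Krt18 and Krt8, the keratin pair of simple epithelium, had 24.7 to 182 and 5.74 to 59.0 CPM in the inguinal libraries and 7.68 to 77.9 and 1.10 to 23.2 CPM in the super cervical ones, and overlapped (log2 fold changes 1.55 ± 0.79 and 1.45 ± 0.88, edgeR adjusted p = 0.979 each). Prlr, the prolactin receptor, had 23.7, 13.7 and 16.7 CPM in the inguinal libraries and 7.68, 3.99 and 3.33 CPM in the super cervical ones, without overlap (log2 fold change 2 ± 0.51, edgeR adjusted p = 0.44). The milk protein genes Csn2 and Lalba had at most 0.432 CPM in any of the 6 libraries, and Wap had no counts. Negative log2 fold changes were fitted for 4 of the 11. Trf, transferrin, had 5.74, 7.37 and 6.25 CPM in the inguinal libraries and 15.4, 11.4 and 16.7 CPM in the super cervical ones, without overlap (log2 fold change -1.17 ± 0.44, edgeR adjusted p = 0.979). Wfdc18, a secreted protein of the whey acidic protein family, had 1.08, 8.04 and 7.74 CPM in the inguinal libraries and 4.39, 19.95 and 329 CPM in the super cervical ones (log2 fold change -4.36 ± 1.62, edgeR adjusted p = 0.979). Elf5, a transcription factor of secretory epithelium, and Csn3, another casein, overlapped, with log2 fold changes of -0.92 ± 0.75 and -0.66 ± 1.02 (edgeR adjusted p = 0.979 each). The source of Cited1, Areg and Krt19 was not tested. Areg lost its call without inguinal library 1 (adjusted p = 0.0669), and Krt19 without inguinal library 1 or 3 or super cervical library 2 (adjusted p = 0.0669 to 0.122). In the isotype control Areg stood at 14.6 CPM while Cited1 and Krt19 had 0 counts.

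Mup22, one of a family of near-identical major urinary proteins, was the other gene higher in the inguinal node, with 9.68, 13.7 and 13.2 CPM in the inguinal libraries and 0, 0 and 0.768 CPM in the super cervical ones. The log2 fold change was 4.67 ± 0.78 (edgeR adjusted p = 0.0348), and the family member is uncertain because reads are shared among its copies. The call was lost without any one of the inguinal libraries and without super cervical library 2 (adjusted p = 0.0778 to 0.197), with limma voom (0.187), and in the fits to 36 and to 18 libraries (0.0667 and 0.0938).

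On the lower side, secretory products of salivary glands spanned the widest range. Smr3a, a proline-rich protein of the submandibular gland under androgen control, had 0, 0.335 and 0.625 CPM in the inguinal libraries, against 146, 1597 and 3487 CPM in the super cervical ones. The log2 fold change was -11.84 ± 1.32 (edgeR adjusted p = 0.00473). Bpifa2, known in mice as parotid secretory protein, had 0, 0 and 1.25 CPM in the inguinal libraries and 70.2, 131 and 392 CPM in the super cervical ones (log2 fold change -8.04 ± 0.93, edgeR adjusted p = 0.00473). Amy1, salivary amylase, had 0.717, 2.68 and 2.88 CPM in the inguinal libraries and 63.7, 362 and 1316 CPM in the super cervical ones (log2 fold change -7.99 ± 1.09, edgeR adjusted p = 0.0117). It has close relatives among the pancreatic amylase genes, so its share of the reads is uncertain. In all 3 genes the super cervical libraries kept the same order, with library 1 lowest and library 3 highest.

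Of 30 salivary gland genes in the table, 8 were tested and 3 were lower. Their log2 fold changes had a median of -9.94. Fitted values of genes with few inguinal counts, such as Smr3a and the Dcpp genes, depend on the prior count. This median and those log2 fold changes therefore give no measure of size. In 7 of the 8 every inguinal library lay below every super cervical one, and over all genes tested 4.04% did so. Smr3a, Bpifa2, Dcpp1, Dcpp2 and Dcpp3 had enough counts to be tested only because of their super cervical counts. For them a lack of overlap was nearly given, and the share over all genes is no fair reference. The 3 Dcpp genes, which encode near-identical demilune cell and parotid proteins and so share reads, had large and unequal levels. Dcpp1 had 0, 0.670 and 0.0961 CPM in the inguinal libraries and 105, 983 and 6284 CPM in the super cervical ones (log2 fold change -13.69 ± 2.03, edgeR adjusted p = 0.0606). Dcpp2 and Dcpp3 reached 6007 and 7013 CPM in super cervical library 3, with at most 53.8 and 70.7 CPM in the other super cervical libraries and at most 0.717 and 0.240 CPM in an inguinal library (edgeR adjusted p = 0.979 and 0.846). Klk1, a kallikrein protease, had 0.717, 2.01 and 2.74 CPM in the inguinal libraries and 3.29, 9.12 and 53.8 CPM in the super cervical ones (log2 fold change -3.54 ± 0.86, edgeR adjusted p = 0.355).

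Egf, which the mouse submandibular gland makes in its ducts, did not follow them. It had 10.04, 7.70 and 3.70 CPM in the inguinal libraries and 7.68, 2.57 and 2.47 CPM in the super cervical ones (log2 fold change 0.95 ± 0.66, edgeR adjusted p = 0.979). The duct product Klk1b22 had no counts in any library, and no other Klk1b gene exceeded 0.512 CPM. Among genes too sparse to test, Car6, a secreted carbonic anhydrase, and Pip, prolactin-induced protein, lay lower in every inguinal library, with at most 0 and 0.0481 CPM there and 1.10 to 20.6 and 2.19 to 84.2 CPM in the super cervical libraries. Summed over the list, the inguinal libraries held 16.1, 21.4 and 17.0 CPM and the super cervical ones 525.7, 3202 and 25911 CPM, a wide spread within the super cervical node. How much of this RNA came from gland beside the node was not tested. The number of salivary genes called was 7 without super cervical library 1, 1 without inguinal library 2 or 3, and 0 without inguinal library 1. Smr3a also lost its call without super cervical library 3 (adjusted p = 0.335).

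**Figure D4:**
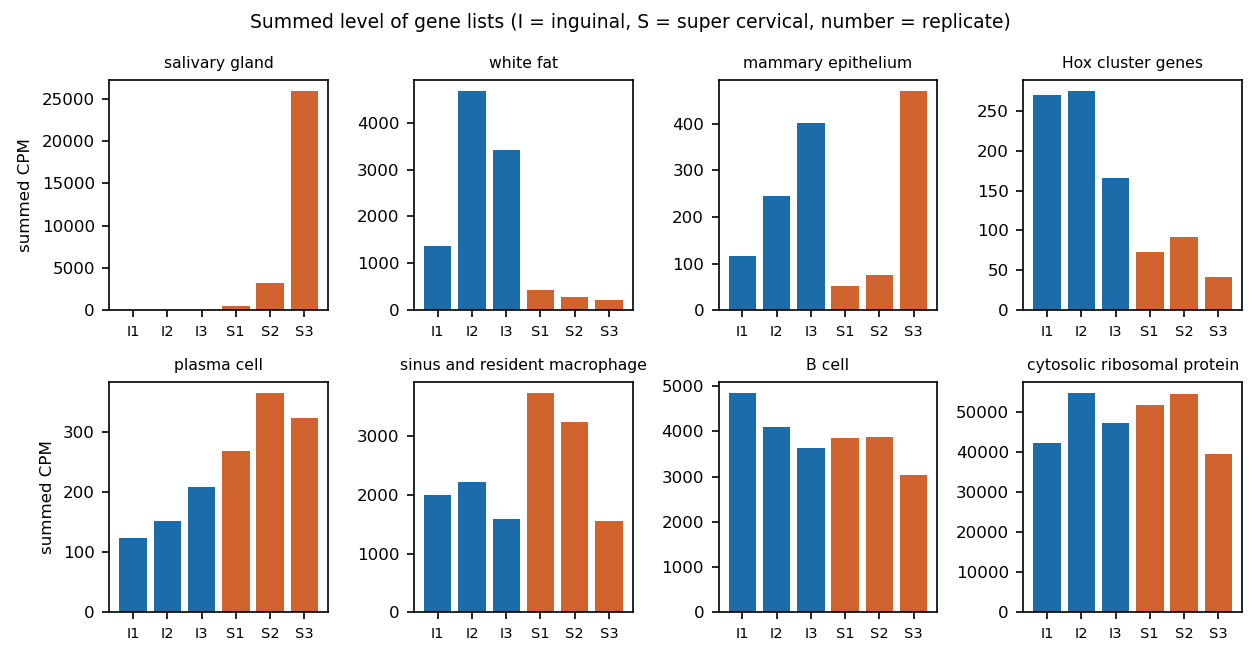
Summed CPM of 8 gene lists in each library, with inguinal libraries 1 to 3 (I1 to I3, blue) left of super cervical libraries 1 to 3 (S1 to S3, orange) and a linear axis from 0 in each panel. The salivary sum runs from 16.1 to 21.4 CPM in inguinal and from 525.7 to 25911 CPM in super cervical libraries, the white fat sum is higher in every inguinal library, and the B cell and ribosomal protein sums overlap.

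Further genes that were lower encode secreted proteins outside the salivary list. Dnase1, the secreted endonuclease that digests free DNA, had 0 counts in all 3 inguinal libraries, against 69.1, 651 and 766.5 CPM in the super cervical ones. Set against a floor of 3 counts over the inguinal group it was at least 4390-fold lower (0 counts against 11332, edgeR adjusted p = 0.00735). Chia1, an acidic chitinase, had 0 counts in the inguinal libraries and 9.88, 31.4 and 98.5 CPM in the super cervical ones, at least 413-fold lower against the same floor (edgeR adjusted p = 0.0095). Wfdc12, a small protein of the whey acidic protein family, had 0.717, 0.335 and 0.240 CPM in the inguinal libraries and 30.7, 390 and 763 CPM in the super cervical ones (log2 fold change -10.14 ± 1.23, edgeR adjusted p = 0.00735). In each gene super cervical library 1 was lowest and library 3 highest. The salivary sum and the total counts of these libraries ran in the same order, and the part of gland tissue in these genes was not tested.

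Low counts set the precision of the rest of this group. Cst5, a cystatin that inhibits cysteine proteases, had 3 counts in the inguinal libraries against 1721 in the super cervical ones, a ratio of pooled counts of 0.00106 with a 95% exact interval of 0.000218 to 0.0031 (edgeR adjusted p = 0.0327). Bglap3, a relative of osteocalcin that shares reads with its neighbours Bglap and Bglap2, had 1 count in the inguinal and 777 in the super cervical libraries, a ratio of pooled counts of 0.000781 with an interval of 1.98e-05 to 0.00437 (edgeR adjusted p = 0.00735). The locus 2310057J18Rik, named here after its values were seen, had 2 counts in the inguinal and 3461 in the super cervical libraries, a ratio of pooled counts of 0.000351 with an interval of 4.25e-05 to 0.00127 (edgeR adjusted p = 0.00473). The 3 had at most 0.359 CPM in an inguinal library, and the lowest super cervical value was 4.39 CPM. Dnase1, Chia1, Wfdc12, Cst5, Bglap3 and 2310057J18Rik lost their calls without inguinal library 1 (adjusted p = 0.0845 to 0.325), all but Bglap3 also without inguinal library 3 (0.266 to 0.657), and Wfdc12, Cst5 and 2310057J18Rik without inguinal library 2 (0.0624 to 0.766). Dnase1 and Wfdc12 lost theirs without super cervical library 3 (adjusted p = 0.974 and 0.298), and 2310057J18Rik in the fits to 36 and to 18 libraries (adjusted p = 0.149 and 0.153).

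Igha, the constant region of immunoglobulin A heavy chain, which plasma cells of mucosae and glands make, was lower in the inguinal node. It had 8.61, 6.36 and 3.41 CPM in the inguinal libraries, against 47.2, 45.3 and 71.3 CPM in the super cervical ones. The log2 fold change was -3.22 ± 0.46 (edgeR adjusted p = 0.0117). Super cervical libraries 1 and 2 differed little in Igha, library 3 was highest, and the part of gland tissue in the Igha result was not tested. The call was lost without inguinal library 1 (adjusted p = 0.0845) and without inguinal library 2 (adjusted p = 0.077), and when other sites shared the fit (adjusted p = 0.913 with 36 libraries and 0.506 with 18).

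Of 16 plasma cell genes, 13 were tested, 0 were higher and 1 lower, their log2 fold changes had a median of -1.21, and there were 5 genes whose inguinal libraries lay entirely below the super cervical ones, as did 4.04% of all genes tested. Ighg2b, an immunoglobulin G heavy chain, had 7.53, 3.01 and 2.74 CPM in the inguinal libraries and 24.1, 55.6 and 24.3 CPM in the super cervical ones (log2 fold change -3.05 ± 0.55, edgeR adjusted p = 0.0606). Jchain, which joins IgA dimers, had 7.89, 2.68 and 5.38 CPM in the inguinal libraries and 23.0, 21.7 and 15.6 CPM in the super cervical ones (log2 fold change -1.90 ± 0.49, edgeR adjusted p = 0.469). Ighg3 overlapped, with 4.42 to 12.1 CPM in the inguinal and 10.9 to 58.1 CPM in the super cervical libraries (edgeR adjusted p = 0.533). Igkc, the kappa light chain shared by all these antibodies, overlapped too, at 48.4, 70.7 and 132 CPM in the inguinal and 61.5, 44.2 and 83.9 CPM in the super cervical libraries. Pigr, the epithelial receptor that carries IgA into secretions, had 24.0, 27.5 and 13.6 CPM in the inguinal libraries and 160.2, 108 and 1438 CPM in the super cervical ones (log2 fold change -4.73 ± 0.94, edgeR adjusted p = 0.129).

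No gene of the sinus and resident macrophage list was called, although all 15 members tested had a negative log2 fold change in the 6-library edgeR fit. Of its 22 genes 15 were tested, with 0 higher, 0 lower and a median of -0.58 against -0.05 over all genes, and 6 of the 15 lay entirely below in the inguinal libraries, as did 4.04% of all genes tested. DESeq2 and limma voom also called 0, and 2 genes, Hmox1 and Mrc1, had an unadjusted p under 0.05 in edgeR. A uniform sign was not particular to macrophage genes. All 16 tested cell cycle genes and all 11 tested mitochondrially encoded genes also had negative log2 fold changes. Marco had a log2 fold change of -0.73 ± 0.46 (edgeR adjusted p = 0.979), and its super cervical library 3, at 695 CPM, was lower than any inguinal library. Maf, a transcription factor of resident macrophages, had 532, 576 and 295.5 CPM in the inguinal libraries and 643, 640.4 and 199.7 CPM in the super cervical ones (log2 fold change -0.08 ± 0.47, edgeR adjusted p = 0.991). Csf1r, the growth factor receptor on which macrophages depend, had 11.5, 16.4 and 16.7 CPM in the inguinal libraries and 17.6, 31.1 and 17.9 CPM in the super cervical ones (log2 fold change -0.58 ± 0.41, edgeR adjusted p = 0.979). Cd68, a lysosomal protein of macrophages, had 2.87, 2.34 and 4.33 CPM in the inguinal libraries and 0, 4.56 and 5.29 CPM in the super cervical ones (log2 fold change -0.23 ± 0.71, edgeR adjusted p = 0.983).

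Named after their values were seen, 4 further genes are all taken from the 6 of the macrophage list without overlap. Hmox1, haem oxygenase, had 40.5, 39.5 and 44.5 CPM in the inguinal libraries and 65.8, 80.7 and 65.3 CPM in the super cervical ones (log2 fold change -0.77 ± 0.33, edgeR adjusted p = 0.979). Mrc1, the mannose receptor, had 7.89, 7.37 and 7.69 CPM in the inguinal libraries and 28.5, 9.98 and 15.9 CPM in the super cervical ones (log2 fold change -1.19 ± 0.48, edgeR adjusted p = 0.979). Lyz2, lysozyme, and Cd209b, the lectin SIGN-R1 of marginal zone and medullary macrophages, also lay lower in each inguinal library, with log2 fold changes of -0.60 ± 0.33 and -0.70 ± 0.36 (edgeR adjusted p = 0.979 each). Summed over the list, the inguinal libraries held 1995, 2212 and 1582 CPM and the super cervical ones 3726, 3229 and 1553 CPM, which overlap because of super cervical library 3. Rpl22, the tagged gene itself, had 81.4, 149 and 177 CPM in the inguinal libraries and 132, 129 and 163 CPM in the super cervical ones (log2 fold change -0.06 ± 0.36, edgeR adjusted p = 0.992).

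The lists of B cells, T cells, lymphatic endothelium and chemokines gave no call in edgeR, DESeq2 or limma voom, and at an unadjusted p under 0.05 edgeR gave 0, 1 (Il7r), 0 and 1 (Ccl8) genes. For B cells 16 genes were tested, with 0 higher, 0 lower and log2 fold changes with a median of 0.11, and Pax5 had a log2 fold change of 0.29 ± 0.38 (edgeR adjusted p = 0.979). For T cells 17 were tested with a median of -0.31, and for lymphatic endothelium 10 with a median of -0.21. Chemokine genes numbered 14 tested with a median of -0.23. Ccl19, the chemokine of the T cell zone, had 663, 775 and 959 CPM in the inguinal libraries and 1093, 914 and 820.5 CPM in the super cervical ones (log2 fold change -0.24 ± 0.35, edgeR adjusted p = 0.979). Ccl8, a monocyte-attracting chemokine named after its values were seen, had 55.2, 96.8 and 88.9 CPM in the inguinal libraries and 196.5, 166.5 and 177 CPM in the super cervical ones, without overlap (log2 fold change -1.16 ± 0.34, edgeR adjusted p = 0.796). Lists of skeletal muscle, skin, nerve and glia, and airway epithelium held 9, 1, 3 and 3 tested genes with no call, and no thyroid or parathyroid gene was tested.

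Abundant genes were screened as well. Of genes with a mean of 100 CPM or more over the 6 libraries, outside the listed organs, those with the smallest p on the higher side included Zmynd8, Sp110 and Gpx3, none of them called. Zmynd8, a chromatin reader, and Sp110, an interferon-induced nuclear protein, had log2 fold changes of 1.51 ± 0.37 and 1.20 ± 0.34 (edgeR adjusted p = 0.379 and 0.715), and Gpx3, the secreted glutathione peroxidase, one of 1.26 ± 0.42 (edgeR adjusted p = 0.979). On the lower side the 4 were Dnase1, Wfdc12, Pigr and Cep85. Cep85, a centrosomal protein, had 883, 497 and 355 CPM in the inguinal libraries and 12911, 2150.5 and 982 CPM in the super cervical ones (log2 fold change -3.21 ± 0.83, edgeR adjusted p = 0.449), and it was highest in super cervical library 1, the library with the largest share of ribosomal sequence.

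Levels in 4 other nodes of the series place the 2 nodes beside them, on a scaling over the 18 libraries of 6 sites that gives slightly other CPM. Hoxc8 averaged 72.8 ± 21.8 CPM in inguinal and 2.88 ± 1.32 CPM in super cervical node, and 0.498 ± 0.513 CPM in deep cervical, 0.199 ± 0.0449 CPM in mediastinal, 72.5 ± 22.0 CPM in ileal and 103.9 ± 27.2 CPM in ceco-colonic node (SD, n = 3 each). The inguinal level lay among those of the abdominal nodes, and the neck and chest nodes were all low. Hoxb7 followed another order, with 7.98 ± 3.52 CPM in inguinal and 0 in super cervical node, and 7.16 ± 1.01 CPM in deep cervical, 1.06 ± 0.379 CPM in mediastinal, 24.2 ± 4.58 CPM in ileal and 8.85 ± 2.63 CPM in ceco-colonic node. Inguinal, deep cervical and ceco-colonic nodes did not differ in Hoxb7 beyond their spread.

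Among the 6 sites the fat genes Fabp4, Retn and Cox8b were lowest in the super cervical node. Fabp4 averaged 1999.9 ± 1068 CPM in inguinal and 127 ± 45.9 CPM in super cervical node, and 2069 to 6285 CPM in the other 4 nodes. Retn averaged 122 ± 84.1 CPM in inguinal and 9.60 ± 3.13 CPM in super cervical node, and 65.6 to 203 CPM in the others. Cited1 averaged 30.3 ± 8.68 CPM in inguinal and 0.497 ± 0.502 CPM in super cervical node, with 102 ± 78.1 CPM in deep cervical node and 0.490 to 2.09 CPM in the remaining 3, so this gene was high in 2 of the 6 sites. Areg averaged 38.8 ± 25.7 CPM in inguinal and 0.479 ± 0.747 CPM in super cervical node. It averaged 6.68 ± 8.38 CPM in deep cervical node and 0.303 to 0.447 CPM in the remaining 3. Krt19 averaged 14.8 ± 11.99 CPM in inguinal and 0.065 ± 0.113 CPM in super cervical node. It was higher in deep cervical node, at 67.5 ± 10.6 CPM, and stood at 21.9 ± 21.4 CPM in mediastinal node. In ileal and ceco-colonic node Krt19 averaged 0.625 and 0.354 CPM. The uncalled genes Krt18, Krt8 and Prlr of the same list averaged 575, 574 and 192 CPM in deep cervical node. Their inguinal means were 127, 34.4 and 20.9 CPM. Cox8b was far higher in deep cervical and mediastinal node, at 656 ± 336 and 296 ± 66.6 CPM, than the 28.0 ± 14.2 CPM of inguinal and the 1.26 ± 0.282 CPM of super cervical node.

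Smr3a and Pitx1 were higher in the super cervical node than in any of the other 5 sites. Smr3a averaged 0.387 ± 0.377 CPM in inguinal and 2007 ± 1916.5 CPM in super cervical node, with 0.0662 to 0.779 CPM in the other 4 nodes, deep cervical included. Not every salivary gene was as low in deep cervical node. Dcpp1 averaged 120 ± 194.2 CPM there, with 344.1 CPM in library 2. Its means were 0.3118 CPM in inguinal and 2817.3 CPM in super cervical node. Amy1 averaged 10.6 CPM in deep cervical, 2.51 CPM in inguinal and 666.1 CPM in super cervical node. Bpifa2 was low like Smr3a, at 0.368 CPM in deep cervical and 226.2 CPM in super cervical node. Pitx1 averaged 0.13 ± 0.226 CPM in inguinal and 32.2 ± 37.5 CPM in super cervical node, with 2.15 ± 1.48 CPM in deep cervical node and 0.0173 to 0.286 CPM in the other 3. Igha, in contrast, averaged 7.10 ± 2.71 CPM in inguinal and 62.1 ± 16.8 CPM in super cervical node, 254 ± 215 CPM in mediastinal, 1898 ± 331 CPM in ileal and 1283 ± 254 CPM in ceco-colonic node. In deep cervical node 1 library held 1059 CPM of Igha and the other two 10.5 and 15.4 CPM.

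**Figure D5:**
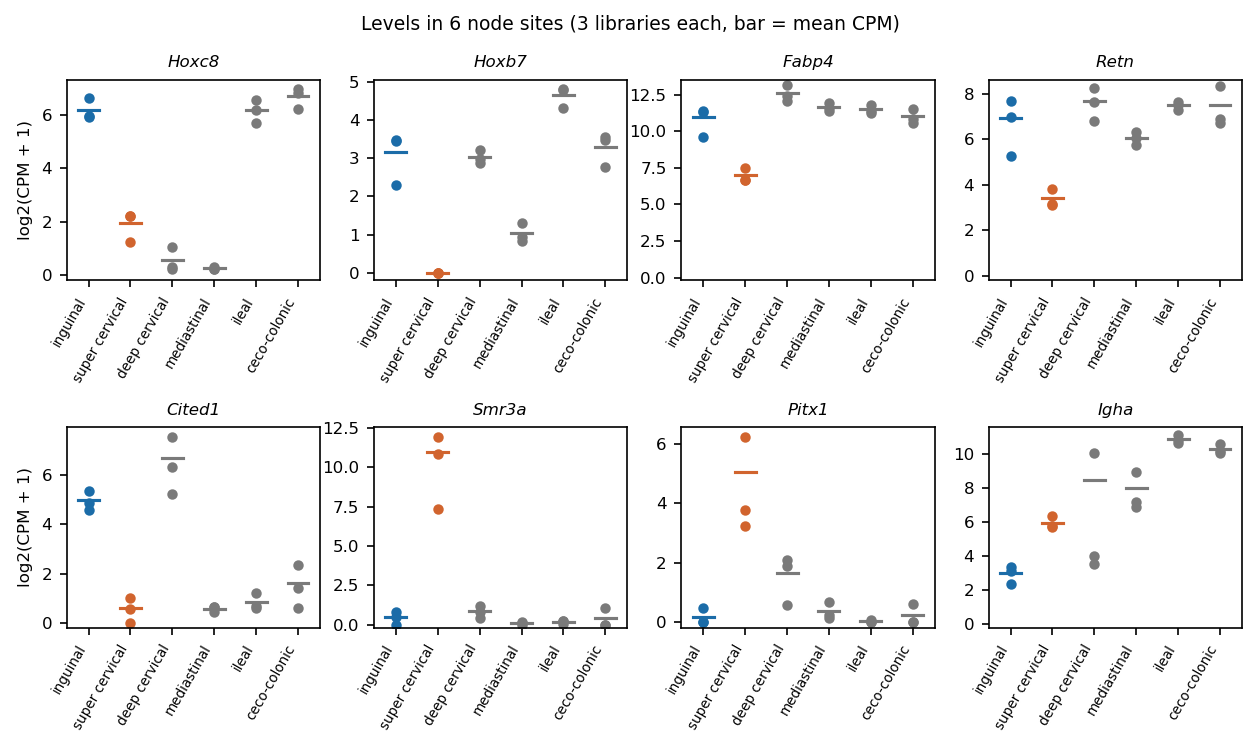
Level of 8 of the genes as log2(CPM + 1) in 6 node sites, 3 libraries each, with a bar at the log2 of the mean CPM plus 1, inguinal in blue, super cervical in orange and the other 4 sites in grey. Hoxc8 is high in inguinal, ileal and ceco-colonic node, Fabp4 and Retn are lowest in super cervical node, and Smr3a is high in super cervical node alone among the 6.

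The deep cervical node, the other neck node, was set against each of the 2 nodes in the same 18-library fit, where 50.9% of 17619 genes differed for inguinal and 38.6% for super cervical node. Both contrasts share the deep cervical libraries, so their values are given side by side only. Hoxc8 was 7.76 ± 0.56 higher on the log2 scale in inguinal than in deep cervical node (edgeR adjusted p = 3.08e-08) and 2.85 ± 0.64 higher in super cervical than in deep cervical node (edgeR adjusted p = 0.00217). Hoxa7 was 1.80 ± 0.35 higher in inguinal than in deep cervical node (edgeR adjusted p = 0.00053), and its log2 fold change for super cervical over deep cervical node was 0.32 ± 0.37 (edgeR adjusted p = 0.513). Fabp4 had a log2 fold change of -1.65 ± 0.42 for inguinal over deep cervical node (edgeR adjusted p = 0.00356) and of -5.64 ± 0.50 for super cervical over deep cervical node (edgeR adjusted p = 3.1e-07). Smr3a had one of -0.68 ± 1.22 for inguinal over deep cervical node (edgeR adjusted p = 0.657), and for super cervical over deep cervical node it was 11.10 ± 1.16 (edgeR adjusted p = 5.27e-06). Ccl8 was higher in each of the 2 nodes than in the deep cervical node, by 1.31 ± 0.37 in inguinal (edgeR adjusted p = 0.00687) and by 2.40 ± 0.38 in super cervical node (edgeR adjusted p = 0.000124).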

How the data were processed

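The authors deposited a table of estimated counts for 56351 genes in 37 libraries. The tools kallisto, limma and edgeR (roles and versions not given) and the builds GRCm39 and mm10 are named per the submitters' processing notes, so no coordinates are tied to the counts. Per the labels, polyadenylated RNA was sequenced. The estimated counts were rounded (39.9% of the values used were not whole, with no tolerance). kallisto shares reads between near-identical transcripts, strand use is not stated, and PCR copies are counted, so intervals cover counting error only.

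Tests used edgeR 4.0.16 in R 4.3.3 on the 3 inguinal and 3 super cervical libraries: filterByExpr (minimum count 10, minimum total 15, leaving 11844 genes and 44507 not tested), TMM scaling, a robust quasi-likelihood F test, and Benjamini-Hochberg adjustment over all genes tested, called under 0.05. The procedure was tested on simulated data. Alternatives used limma 3.58.1 and DESeq2 1.42.0. Replicates differed beyond counting noise (chi-square per degree of freedom 17.3 to 80.9). Floors are 3 counts, and ratio intervals are exact at 95%. The SE of a log2 fold change was derived from the test, as its absolute value divided by the square root of the F statistic. It is approximate, most of all where a node had few counts. The comparison and the 38 gene lists were chosen with earlier results of these data known.

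Genes named were a fixed set of macrophage genes and Rpl22, every tested Hox gene and called position factor, up to 12 called genes a side by fold change (mean of 10 CPM or more, no overlap), 4 a side of 100 CPM or more by p, and up to 4 of a described list. Exceptions are stated, and a gene that this rule takes is not reported here.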

Additional observations from a re-analysis of the deposited data

How the results depend on the processing

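The count of called genes was 21 (10 higher, 11 lower in inguinal node). It moved little with relative log expression or upper quartile scaling (22 and 23) or with ribosomal sequence features left out (21). It was 125 (39 higher, 86 lower) with no filter on low counts, 9 (4 higher, 5 lower) with a stricter filter, 57 (26 higher, 31 lower) with DESeq2, which gave 9 genes no adjusted p, and 4 (3 higher, 1 lower) with limma voom. A fit to all 36 pull-down libraries gave 36 (10 higher, 26 lower) and a fit to 18 libraries of 6 sites 45 (20 higher, 25 lower). Leaving out 1 library at a time gave 6 to 51 calls, with 6 to 19 higher and 0 to 32 lower. Under each of the alternatives that tested them, the 21 genes kept their sign: of 323 such values 247 stayed on the same side of the threshold and 76 lost the call. Of 718 values for 46 uncalled genes named, 635 stayed, 73 passed the threshold and 10 changed sign. The log2 fold changes that did so belong to Cd68 (-0.58 to 0.18 when leaving out 1 library), Hoxd8 (-1.6 to 0.17), Rpl22 (-0.3 to 0.21, and 0.0038 in the 18-library fit) and Maf (-0.45 to 0.21, 0.04 with limma voom and 0.05 with a replicate block). The causes of these shifts were not tested, beyond the fewer samples or genes of the leave-one-out and stricter settings.

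The labels give both nodes the replicate numbers 1 to 3 without saying what they share. Deviations of same-numbered libraries correlated at 0.24, 0.04 and 0.63, so the numbers were not taken as pairs, and not every library correlated best with its own number. With a replicate block the count was 98 (64 higher, 34 lower), 19 of the 21 genes among them, without Cfd and Fabp4. Depth limits the genes of low level most: 3 counts equal 3.29 CPM in super cervical library 1.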

Other observations

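Super cervical library 3 held genes that no other library of the 6 had at a like level. At 50 CPM or more and at least 20 times every other library, 6 genes met this in super cervical library 3, 1 in inguinal library 1 and 0 in the remaining 4. Muc19, a gel-forming mucin of salivary mucous cells, had 1.08, 0 and 0 CPM in the inguinal libraries and 2.19, 0 and 1205 CPM in the super cervical ones. A2ml1, a protease inhibitor, reached 1527 CPM in super cervical library 3, against 6.06 to 17.4 CPM in the inguinal and 43.9 and 14.8 CPM in the other super cervical libraries. Nupr1, a stress-induced nuclear protein, stood at 440.5 CPM and Sel1l3 at 82.1 CPM in the same library. Nkx2-3, a homeobox gene of gut mesenchyme, spleen and developing salivary gland, had 0, 0 and 0.0481 CPM in the inguinal libraries and 0, 0 and 30.0 CPM in the super cervical ones. In inguinal library 1 the gene was Slc10a7, with 199.8 CPM against 1.67 and 2.64 CPM in the other inguinal and 2.19 to 5.99 CPM in the super cervical libraries.

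Genes of the Y chromosome did not vary alike over the libraries, and the labels give no sex. Ddx3y had 29.4, 0.670 and 1.06 CPM in the inguinal libraries and 2.19, 29.1 and 1.54 CPM in the super cervical ones. Eif2s3y had 10.04, 0 and 0.192 CPM in the inguinal libraries and 6.58, 25.1 and 0.512 CPM in the super cervical ones, while Uty had 183, 168.5 and 55.7 CPM in the inguinal libraries and 124, 115 and 59.2 CPM in the super cervical ones. Kdm5d had 4.90 to 9.68 CPM in the inguinal and 5.97 to 12.8 CPM in the super cervical libraries, and Usp9y had no counts in any. Xist was present in all 6 libraries, at 93.1 to 158.5 CPM in the inguinal and 34.8 to 129 CPM in the super cervical ones. Whether libraries held RNA of both sexes was not tested.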
